A study of Mus musculus with 2 samples.

Results

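Osteoblasts are made from mesenchymal precursors under the control of a short series of transcription factors. *Runx2* commits the precursor and binds the regulatory regions of bone matrix genes, *Sp7* (osterix) acts after it and is needed for the cell to mature, the homeodomain factors *Dlx3* and *Dlx5* act on both of these and on matrix genes, and *Atf4* is a stress-responsive leucine zipper factor that supports amino acid import and collagen synthesis and can drive the osteocalcin gene. *Runx2*, *Sp7*, *Dlx3* and *Dlx5* are known mainly from the skeleton, whereas *Atf4* is transcribed in most tissues and is controlled largely at the level of its translation. These 5 genes were chosen by name from the 19465 genes counted, by no threshold on their values but with earlier results of these data known, and their transcripts were followed through both sections of the study. *Runx2* (ENSMUSG00000039153) lies on chr17:44495987-44814797 (minus strand), *Sp7* (ENSMUSG00000060284) on chr15:102356606-102367182 (minus strand), *Dlx3* (ENSMUSG00000001510) on chr11:95120119-95125296 (plus strand), *Dlx5* (ENSMUSG00000029755) on chr6:6877805-6882085 (minus strand) and *Atf4* (ENSMUSG00000042406) on chr15:80255184-80257541 (plus strand), in GRCm38 as annotated by GENCODE M21.

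The study asked how mechanical loading changes gene expression at a healing fracture. Female bone cell reporter (BCR) mice, in which *Ibsp* and *Acp5* are tagged with fluorescent proteins, received a femoral osteotomy held by an external fixator at 12 weeks of age. From bridging of the defect at 3 weeks after surgery, the Loaded mouse received individualized cyclic loading 3 times per week, and the Control mouse received sham-loading without force. Both were killed at 5 weeks after surgery, at 17 weeks of age, and 1 longitudinal section of 1 femur per group was measured with the Visium assay for fixed, paraffin-embedded tissue, in which probe pairs report each transcript as unique molecular identifiers (UMIs) in barcoded spots. The reporter alleles, the osteotomy and the fixator were thus shared by both groups, and no unoperated femur entered the comparison.

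In Control, 1962 spots gave 9002147 UMIs, and in Loaded, 1436 spots gave 4910716. Spots with at least 500 UMIs and 250 genes were kept (1898 and 1431). The bone region was the set of spots the authors assigned to bone between the inner fixator pins, 131 spots in Control (median 3478 UMIs) and 146 in Loaded (median 2621 UMIs). It held 557259 UMIs in Control, against 8426953 in the other kept spots, and 409020 in Loaded, against 4499787, which was 8.33% of the kept UMIs of the Loaded section. A spot can hold several cells of different types, 557 barcodes occurred in both sections because they name positions on the slide, and spots of 1 section are not replicates. With 1 section per group no test was possible. Each 95% interval below is exact Poisson for a level, exact binomial for a share and exact conditional binomial for a ratio. For a difference of log2 ratios between the sections it is a normal approximation. All intervals cover counting error only, not the variation between mice.

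The bone regions themselves differed in makeup. The summed share of 7 osteoblast product genes was 0.0937% of UMIs in Control bone spots and 0.480% in Loaded bone spots, with spots ranging from 0% to 1.12% and from 0% to 1.99%, and none of the 7 genes was at 0 in either region. Transcripts of 22 skeletal muscle genes made up 17.4% of UMIs in Control bone and 9.14% in Loaded bone, and those of 10 granulocyte genes 0.111% and 0.441%. The 8 osteoclast genes gave 0.387% and 0.484%, and the 5 erythroid genes 2.46% and 3.03%. Summed shares of other lists were lower in Loaded bone, at 0.261% and 0.125% for 6 tendon and periosteum genes, 0.130% and 0.0670% for 8 chondrocyte genes and 0.0678% and 0.0225% for 5 Schwann cell genes, and that of 5 plasma cell genes was higher (0.0266% and 0.0518%). The chondrocyte genes did not move together, since the 5 with at least 10 UMIs had a median log2 ratio of Loaded over Control of 0.06. Several of these differences also stood in the other kept spots. There, muscle genes gave 31.9% in Control and 19.9% in Loaded, granulocyte genes 0.0835% and 0.296%, and chondrocyte genes 0.0938% and 0.0402%. Osteoblast products were closer there (0.0536% and 0.0730%). Tendon and periosteum genes (0.0900% and 0.121%) and Schwann cell genes (0.0183% and 0.0218%) went the other way there. The part of these differences in the values below was not tested. In spots of this kind, fewer cells of a type and less RNA per cell cannot be told apart.

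Promoter sequence was looked at for the genes on which these factors are known to act. Of the 11 targets counted, 8 were at least 2-fold higher in Loaded than in Control bone, against 10.6% of all genes, and 3 lay within 2-fold. Several of the targets are also among the osteoblast product genes above, and the list was chosen with earlier results of these data known. Of the 12 listed target genes 10 were found in RefSeq's promoter table (build GRCm38.p6), with 13 promoter entries. The hexamer ACCACA, the core of the Runx motif, was searched on both strands in the 250 bases before each start and was present in 4 of the 13 entries (30.8%), against 14.0% of all 32851 promoters. For the other factors, the core TAATTA of homeodomain sites stood in 1 of the 13 entries (7.69%, against 4.84% of all promoters) and the GC box GGGCGG of Sp factors in 3 (23.1%, against 32.7%). The 4 genes with the Runx core were *Bglap*, *Spp1*, *Mmp13* and *Dmp1*. Those of *Bglap*, *Spp1* and *Mmp13* are shown because their transcripts differed in direction between the bone regions. The 250 bases before the start of *Bglap* (osteocalcin; chr3:88384467-88384716, minus strand), *Spp1* (osteopontin, the entry of its 2 that holds the core; chr5:104434861-104435110, plus strand) and *Mmp13* (a collagenase; chr9:7272264-7272513, plus strand) read, 5′ to 3′ with motif matches in capitals:
Bglap: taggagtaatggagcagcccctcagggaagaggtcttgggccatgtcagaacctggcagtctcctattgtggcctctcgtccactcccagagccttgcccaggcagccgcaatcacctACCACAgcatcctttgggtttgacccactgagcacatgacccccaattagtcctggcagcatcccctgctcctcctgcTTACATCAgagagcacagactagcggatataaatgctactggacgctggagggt
Spp1: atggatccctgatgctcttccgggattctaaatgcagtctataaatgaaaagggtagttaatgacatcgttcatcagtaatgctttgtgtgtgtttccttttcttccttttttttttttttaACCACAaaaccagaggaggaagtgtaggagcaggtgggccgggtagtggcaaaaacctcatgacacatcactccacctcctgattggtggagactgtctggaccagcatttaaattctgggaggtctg
Mmp13: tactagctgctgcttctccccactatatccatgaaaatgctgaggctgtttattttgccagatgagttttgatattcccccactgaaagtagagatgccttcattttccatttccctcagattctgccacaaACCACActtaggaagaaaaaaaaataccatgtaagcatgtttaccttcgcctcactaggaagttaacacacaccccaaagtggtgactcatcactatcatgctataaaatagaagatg
The Runx core began 132, 128 and 118 bases before the start in *Bglap*, *Spp1* and *Mmp13*. The other run of capitals in *Bglap*, 54 bases before the start, matched TGATGNAA on the reverse strand, the composite element bound by Atf4 with C/EBP factors, which 3.45% of all promoters held, and it did not overlap the Runx core. Capitals mark matches to the Runx core and the Atf4 element alone. A match describes letters in this window and not a bound site.

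Each factor was detected in both sections, at very different depth. Over all kept spots, *Atf4* gave 2503 UMIs in Control and 1990 in Loaded, *Runx2* 494 and 443, *Dlx5* 135 and 126, *Sp7* 78 and 99, and *Dlx3* 10 and 16. Levels of different genes depend on their probes and were not compared. The part of each gene's UMIs that fell in the bone region was 11.1% in Control and 21.7% in Loaded for *Runx2*, 16.7% and 43.4% for *Sp7*, 11.1% and 43.7% for *Dlx5*, and 6.59% and 10.1% for *Atf4*. For *Sp7* and *Dlx5*, bone spots thus held a much larger part of the gene's UMIs in the Loaded section than the 8.33% that they held of all UMIs. No spot held more than 6 UMIs of *Runx2*, 4 of *Sp7* or 4 of *Dlx5*.

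**Figure D1:**
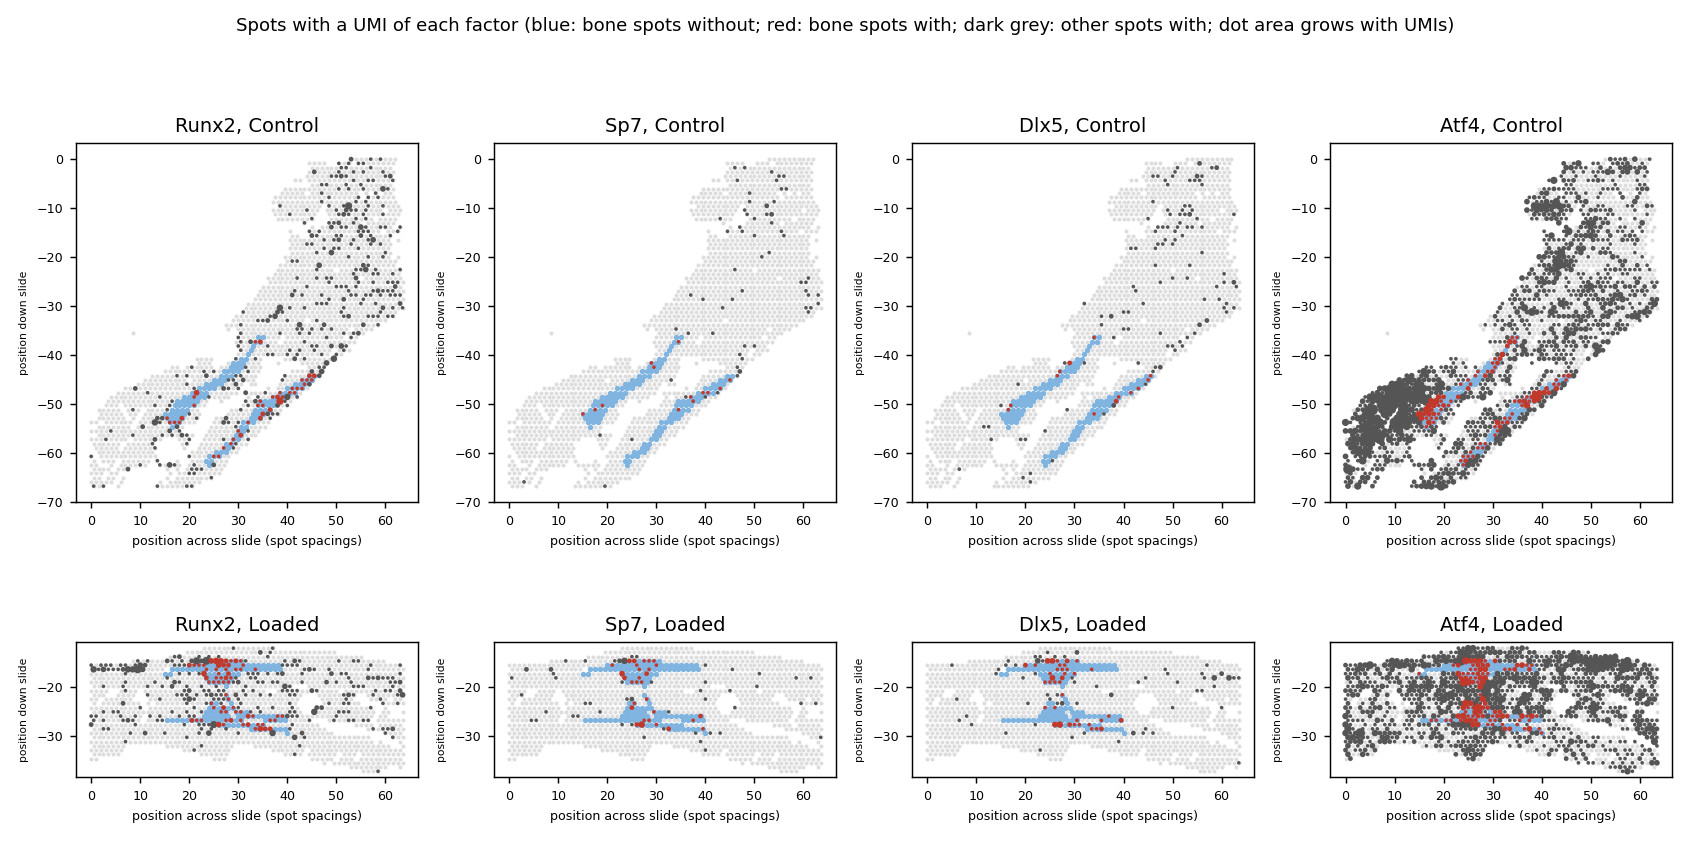
Kept spots of the Control section (upper row) and the Loaded section (lower row) at their grid positions, both axes in spot spacings, with 1 column for each of 4 factors. Blue spots are bone spots without a UMI of the gene, red spots bone spots with at least 1, dark grey spots other spots with at least 1, and dot area grows with the UMIs; *Sp7* was found in 13 of 131 Control bone spots and 30 of 146 Loaded bone spots.

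*Runx2*, the factor that commits precursors to the osteoblast lineage, was about 2 times higher in Loaded bone than in Control bone. It gave 55 UMIs in Control bone (9.87 per 100000 UMIs, interval 7.44 to 12.8) and 96 in Loaded bone (23.5 per 100000, interval 19.0 to 28.7). With each sum divided by the summed scran size factors of its spots, the log2 ratio of Loaded over Control was 1.13 (interval 0.64 to 1.64). When each region was cut into 4 blocks, the blocks ran from 4.04 to 15.8 per 100000 in Control and from 9.44 to 28.7 in Loaded, so the highest Control block lay above the lowest Loaded block. Leaving out 1 block at a time gave log2 ratios from 0.80 to 1.66, the highest without the fourth Control block. In the 13 Control and 21 Loaded bone spots with a muscle share below 5%, the ratio was 0.45 with an interval of -0.49 to 1.42, in which a difference was not detectable at this depth.

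*Sp7*, which acts after *Runx2* and is required for osteoblast maturation, differed more. It gave 13 UMIs in Control bone (2.33 per 100000, interval 1.24 to 3.99) and 43 in Loaded bone (10.5 per 100000, interval 7.61 to 14.2). The log2 ratio was 2.05 (interval 1.13 to 3.07), and 1.78 to 2.37 with 1 block left out. The Control blocks ranged from 0 to 7.75 per 100000 and the Loaded blocks from 7.08 to 12.7, so that only the highest Control block reached the range of the Loaded blocks. In the spots of low muscle share the ratio was 2.50 (interval 0.73 to 4.90).

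*Dlx5*, a homeodomain factor induced by bone morphogenetic proteins, gave 15 UMIs in Control bone (2.69 per 100000, interval 1.51 to 4.44) and 55 in Loaded bone (13.4 per 100000, interval 10.1 to 17.5). The log2 ratio was 2.20 (interval 1.36 to 3.13), and 1.93 to 2.55 with 1 block left out. Blocks ranged from 0 to 10.3 per 100000 in Control and from 2.40 to 16.6 in Loaded and overlapped. In the spots of low muscle share the ratio was 1.27 (interval -0.04 to 2.77). *Dlx3*, its relative in hair, placenta and bone, gave 1 UMI in Control bone and 6 in Loaded bone, too few for a ratio at the limit of 10 UMIs.

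*Atf4*, the broadly expressed member, was higher in Loaded bone by less. It gave 165 UMIs in Control bone (29.6 per 100000, interval 25.3 to 34.5) and 200 in Loaded bone (48.9 per 100000, interval 42.4 to 56.2), a log2 ratio of 0.61 (interval 0.30 to 0.91). Its blocks ranged from 20.6 to 64.5 per 100000 in Control and from 43.1 to 62.3 in Loaded, so that the Loaded blocks lay inside the Control range. Of the 4 members with at least 10 UMIs, 3 (*Runx2*, *Sp7* and *Dlx5*) were at least 2-fold higher in Loaded bone, against 10.6% of all 10003 genes with as many UMIs, and the blocks of every member overlapped between sections. The median log2 ratio of all genes was 0.02, that of these 4 genes 1.59. The members were chosen with earlier results of these data known, and the study had reported *Runx2* and *Sp7* as higher, so this count is a description.

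Over all other kept spots pooled, which may themselves hold bone beyond the pins since only bone between them was assigned, no factor was 2-fold apart between the sections. The log2 ratio of Loaded over Control in the other spots was 0.19 for *Runx2* (439 UMIs in Control, 347 in Loaded), 0.31 for *Sp7* (65 and 56), 0.68 for *Dlx3* (9 and 10), -0.23 for *Dlx5* (120 and 71) and 0.14 for *Atf4* (2338 and 1790). None of the 5 was at least 2-fold higher, against 6.32% of all 16326 genes, and none was 2-fold lower, against 5.16%. Most genes thus lay within 2-fold, and this count does not set the factors apart. Scaling by library totals gave 0.57 for *Runx2* (interval 0.36 to 0.77), 0.69 for *Sp7* (0.15 to 1.23), 0.52 for *Atf4* (0.43 to 0.61) and 1.06 for *Dlx3* (-0.40 to 2.53), so that *Dlx3* passed 2-fold. The pooled ratio also joins places that differed, since within 2 grid steps of bone *Dlx5* gave 0.950 per 100000 in Control and 3.15 in Loaded and *Sp7* 0.855 and 2.46, and far from bone *Dlx5* was lower in Loaded, as given below. These levels near bone are scaled by library totals, which gave the larger ratios above.

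**Figure D2:**
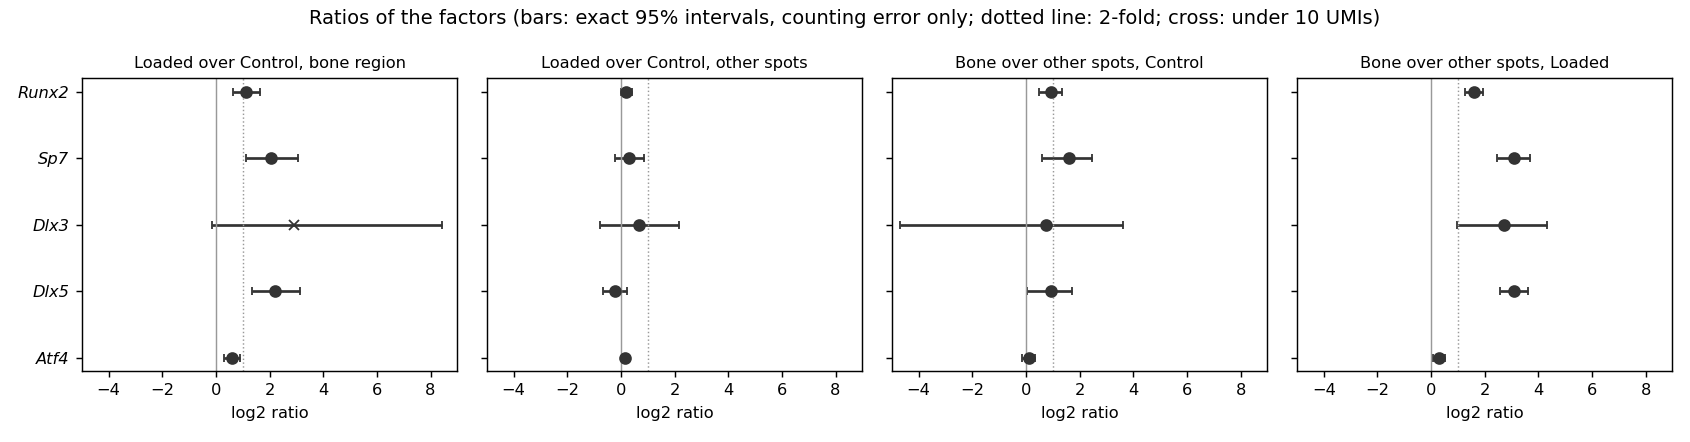
Log2 ratios of the 5 factors in the 4 comparisons, with exact 95% intervals of counting error. The dotted line marks 2-fold and the cross a gene with fewer than 10 UMIs. In the first panel *Runx2*, *Sp7* and *Dlx5* lie to the right of the line, in the second panel no factor does. The cross of *Dlx3* in the first panel (2.91, interval -0.13 to 8.44) also lies to the right, on too few UMIs to be counted.

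Within a section, where library, slide and processing were shared, bone was set against all other kept spots. In Control, *Runx2* gave 9.87 per 100000 in bone and 5.21 elsewhere, a log2 ratio of 0.92 (interval 0.49 to 1.33). *Sp7* gave 2.33 and 0.771 (1.60, interval 0.61 to 2.47), and *Dlx5* 2.69 and 1.42 (0.92, interval 0.04 to 1.70). *Atf4* gave 29.6 and 27.7 (0.09, interval -0.14 to 0.32). Only *Sp7* of the 5 members was at least 2-fold higher in Control bone, against 23.5% of all genes, and the median of all genes was itself at 0.43, so that *Runx2* and *Dlx5* lay above it and *Atf4* below it. At equal depth, averaged over draws, *Runx2* and *Dlx5* were found in nearly the same share of bone and other Control spots, as given below.

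In Loaded, *Runx2* gave 23.5 per 100000 in bone and 7.71 elsewhere, a log2 ratio of 1.61 (interval 1.26 to 1.94). *Sp7* gave 10.5 and 1.24 (3.08, interval 2.47 to 3.68), *Dlx5* 13.4 and 1.58 (3.09, interval 2.56 to 3.62), and *Dlx3* 1.47 and 0.222 (2.72, interval 0.98 to 4.33). *Atf4* gave 48.9 and 39.8 (0.30, interval 0.08 to 0.51). All members but *Atf4* (4 of 5) were at least 2-fold higher in Loaded bone, against 13.1% of all genes and a median of 0.21. The ratio of bone over other spots was larger in Loaded than in Control by 0.68 for *Runx2* (interval 0.16 to 1.20), by 1.48 for *Sp7* (0.45 to 2.51) and by 2.17 for *Dlx5* (1.25 to 3.10) on the log2 scale. For *Atf4* the difference was 0.20, with an interval of -0.11 to 0.51 that holds 0.

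The spots around bone were then graded by distance. In Loaded, *Sp7* went from 10.5 per 100000 in bone to 4.08 in spots 1 grid step away and 0.953 at 2 steps, and *Dlx5* from 13.4 to 3.87 and 2.48. The difference at the first step was 1.37 on the log2 scale for *Sp7* (interval 0.57 to 2.21) and 1.80 for *Dlx5* (interval 1.02 to 2.63). In Control, *Dlx5* went from 2.69 in bone to 1.50 and 0.384, and *Sp7* from 2.33 to 0.752 and 0.959. Ratios were taken there between zones next to each other in level. Bone over the first step gave 0.84 for *Dlx5* (interval -0.49 to 2.28), and bone over the second step 1.28 for *Sp7* (-0.30 to 3.12). Both steps joined gave 0.950 of *Dlx5* and 0.855 of *Sp7*, below bone, with no ratio computed. *Runx2* in Control did not differ between bone (9.87) and the first step (9.41) beyond counting error (log2 ratio 0.07, interval -0.51 to 0.65), whereas in Loaded it went from 23.5 to 13.9 and 7.81. *Atf4* was level across bone and the first step in both sections, at 29.6 and 33.3 in Control and at 48.9 and 49.1 in Loaded. *Dlx3* had 0 UMIs in all 253 Control spots within 2 steps, with an interval up to 0.350 per 100000.

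Spots 3 or more steps from bone formed the other end of the order. Those with a muscle share of at least 10% gave the lowest level of *Runx2* and *Atf4* in both sections, 2.68 per 100000 of *Runx2* in Control and 3.51 in Loaded, and 23.4 and 29.9 of *Atf4*. *Sp7* gave 0.343 and 0.463 there. The remaining distant spots, with a muscle share below 10%, were singled out after the values had been seen. In Control, these 547 spots gave 19.4 per 100000 of *Runx2* (interval 16.7 to 22.4), 3.53 of *Sp7* (2.45 to 4.94), 6.03 of *Dlx5* (4.58 to 7.79) and 54.2 of *Atf4* (49.7 to 59.1). Distant spots over bone, the log2 ratio was 0.98 for *Runx2* (interval 0.54 to 1.44), 1.16 for *Dlx5* (0.32 to 2.09) and 0.60 for *Sp7*, with an interval of -0.36 to 1.64 that holds 0. In Loaded, the 385 spots of this kind gave 16.5 of *Runx2*, 2.13 of *Sp7* and 1.79 of *Dlx5*, all below bone, and 64.0 of *Atf4*, above bone.

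The log2 ratio of bone over these distant spots was therefore -0.98 in Control and 0.51 in Loaded for *Runx2*, -0.60 (interval -1.64 to 0.36) and 2.30 for *Sp7*, and -1.16 and 2.91 for *Dlx5*. Against the distant spots beyond the ends alone, the Loaded ratio of *Runx2* was 0.21 (interval -0.21 to 0.63). For *Atf4*, bone over all distant spots of low muscle share gave -0.87 in Control and -0.39 in Loaded. In Control, 442 of the 547 spots lay beyond the ends of the bone region along its axis, with 21.4 per 100000 of *Runx2* and 7.09 of *Dlx5*, against 12.6 and 2.32 in the 105 spots beside it. These 442 spots also carried osteoblast product transcripts at 0.207% of UMIs, above the 0.0937% of Control bone, and 8 chondrocyte genes at 0.455%, against 0.130% in Control bone and 0.0514% in the corresponding 233 spots of Loaded. The chondrocyte share was uneven, with a median spot at 0.121% and the highest at 24.3%, against a median of 0.0595% in Control bone. The tissue of these spots is not labelled, they may hold bone outside the assigned region, and the part of this in every ratio of bone over other spots was not tested. Between the distant spots of the sections, *Dlx5* was lower in Loaded by a log2 ratio of -1.73 (interval -2.63 to -0.91), *Sp7* gave -0.71, *Runx2* -0.22 and *Atf4* 0.26.

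Other spots could carry as much product as bone. In Control, 839 of 1767 other spots had a product share at or above the median bone spot of that section (0.0542%), and they gave 16.5 per 100000 of *Runx2*, 2.93 of *Sp7*, 4.92 of *Dlx5* and 40.7 of *Atf4*. The remaining 928 gave 2.35, 0.223, 0.536 and 24.5. In Loaded, where the median bone spot stood at 0.375%, only 34 of 1285 other spots reached it, with 25.0 of *Runx2*, 10.4 of *Sp7*, 9.49 of *Dlx5* and 61.2 of *Atf4*. The groups also differed in muscle share, at 17.7% against 35.5% in Control and 7.61% against 20.3% in Loaded, and in Control in depth, at medians of 1445 and 5370 UMIs, with which a single product UMI can put a shallow spot in the richer group. The part of muscle and depth in these levels was not tested, and in Loaded their levels of *Runx2* and *Sp7* were close to those of bone (23.5 and 10.5).

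**Figure D3:**
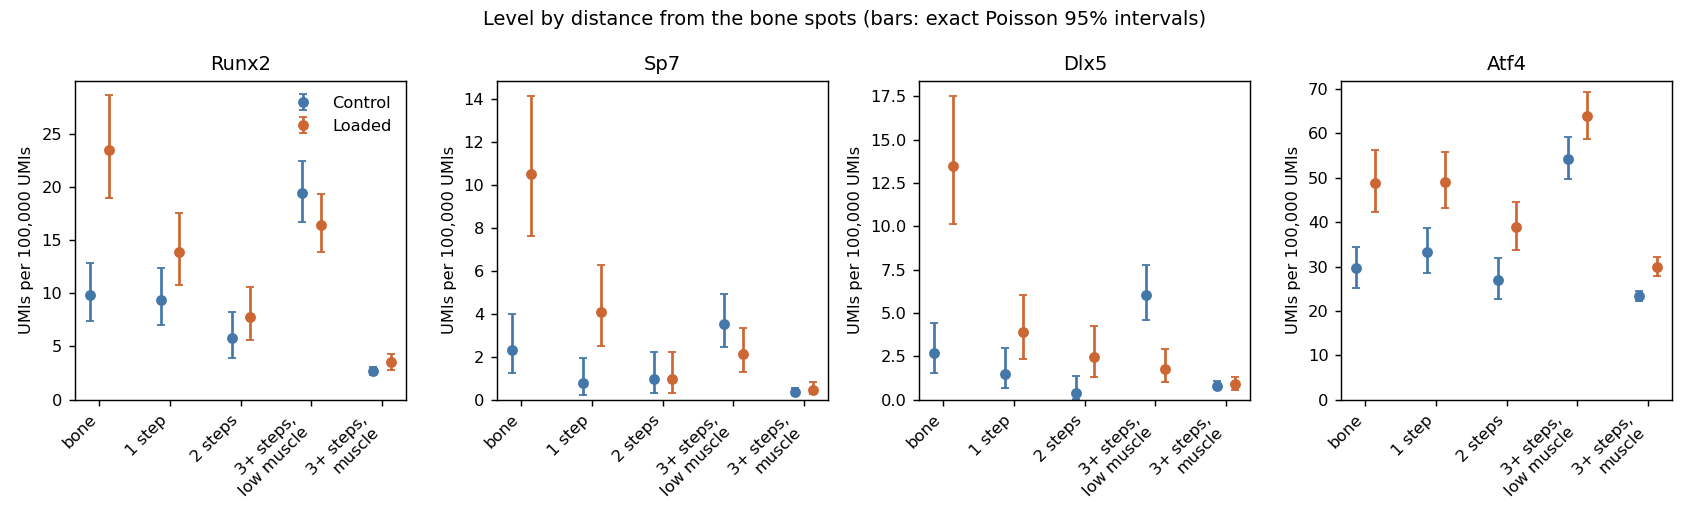
Level of 4 factors in UMIs per 100000 UMIs (vertical axis) in bone spots, spots 1 and 2 grid steps away, and spots 3 or more steps away of low or high muscle share, with exact Poisson 95% intervals, Control in blue and Loaded in orange. *Sp7* and *Dlx5* peak in bone in Loaded, at 10.5 and 13.4, and in the distant spots of low muscle share in Control, at 3.53 and 6.03.

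Detection was compared at equal depth by thinning every spot to 1000 UMIs, which left out 15 Loaded bone spots and no Control bone spot, and gave 131 bone spots in each section. In the seeded draw, *Sp7* had a UMI in 3 of 131 Control bone spots (2.29%, interval 0.475 to 6.55) and in 14 of 131 Loaded bone spots (10.7%, interval 5.97 to 17.3), with shares averaged over all possible draws of 2.77% and 8.34%. *Runx2* was found in 11.5% and 18.3% of bone spots (averages 9.65% and 21.9%), and *Dlx5* in 6.11% and 9.92% (averages 3.05% and 11.2%). *Atf4* was found in 24.4% and 31.3% (averages 27.9% and 37.9%). *Dlx3* was found in 0 of 131 Control bone spots, with an interval up to 2.78% of spots, and in 2 of 131 Loaded ones. With so few spots a single draw moved the shares, and only *Sp7* of 4 tested members reached a Loaded share at least 2 times the Control share in it, against 14.9% of genes. In the averages *Runx2*, *Sp7* and *Dlx5* did (ratios 2.27, 3.02 and 3.68), against 7.74% of genes, and *Atf4* did not (1.36).

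Spots rich in transcripts of skeletal muscle, a tissue that should lack the bone-restricted factors, gave the background. These muscle spots were the non-bone spots with a muscle share of at least 10%, including those within 2 grid steps of bone. They can hold mixed tissue, so they are not a pure tissue without these factors. The median bone spot had a muscle share of 12.9% in Control, above this limit, and 9.71% in Loaded. In the 899 Control and 701 Loaded muscle spots (medians of 5574 and 3505 UMIs before thinning), *Sp7* was found in 0.667% and 1.14% and *Dlx5* in 1.67% and 0.856%. The average over draws was 2.77% in Control bone and 0.645% in Control muscle for *Sp7*, and 8.34% and 0.911% in Loaded. The interval of *Sp7* in Control bone in 1 draw (from 0.475%) reached the muscle share, but over all UMIs bone stood above muscle in both sections (Control log2 ratio 2.77, interval 1.67 to 3.80, from 13 and 24 UMIs; Loaded 3.94, interval 3.16 to 4.77). *Runx2* was found in 5.01% and 4.56% of muscle spots, and in 2.97% and 2.59% of those with a muscle share of at least 20%, below its share in bone. *Atf4* was found in 25.0% and 27.4% of muscle spots. Averaged over draws it was found in 27.9% of Control bone spots and 23.5% of Control muscle spots, and in 37.9% and 27.8% in Loaded, with a log2 ratio over all UMIs of 0.33 in Control (interval 0.09 to 0.56) and 0.71 in Loaded (0.48 to 0.93). Against all other spots, averaged over draws, the bone share in Control was at least 2 times as high for none of 4 tested members (8.55% of genes) and in Loaded for *Runx2*, *Sp7* and *Dlx5* (7.74% of genes). The Control ratios of these shares were 0.98 for *Runx2*, 1.03 for *Dlx5*, 1.79 for *Sp7* and 0.91 for *Atf4*. At equal depth, *Runx2* and *Dlx5* were thus about level between Control bone and the other Control spots. The seeded draw gave the same calls, against 14.2% of genes in Control and 13.3% in Loaded.

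Inside the bone region the factors were set against the products that osteoblasts make. Bone spots were ordered by the summed share of 7 product genes (*Bglap*, *Ibsp*, *Alpl*, *Phospho1*, *Dmp1*, *Phex* and *Mepe*; none a member) and cut into 3 groups of equal size. In Loaded, *Runx2* gave 12.9, 20.6 and 35.5 per 100000 from the lowest to the highest group, *Sp7* 4.83, 10.6 and 15.3, and *Dlx5* 6.44, 11.4 and 21.6. Highest over lowest group, the log2 ratios were 1.46 for *Runx2* (interval 0.63 to 2.37), 1.66 for *Sp7* (0.32 to 3.26) and 1.74 for *Dlx5* (0.59 to 3.08). *Atf4* ran the other way, at 62.8, 47.6 and 38.2 per 100000, with a ratio of -0.71 (interval -1.24 to -0.20).

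Along the same Loaded order the erythroid share of UMIs went from 4.46% to 1.69%, the granulocyte share from 0.681% to 0.212% and the muscle share from 10.6% to 7.20%, and the part of these cells in the opposite course of *Atf4* was not tested. In Control, where the highest group began at a product share of 0.0967%, *Dlx5* gave 1.07, 2.23 and 5.47 per 100000 (ratio 2.35, interval 0.03 to 5.62) and *Sp7* 1.61, 1.34 and 4.79 (ratio 1.57, interval -0.56 to 4.16). *Runx2* gave 9.65, 6.68 and 15.0 and *Atf4* 25.2, 31.2 and 32.8, with intervals that hold 0. Along the Control order the osteoclast share went from 0.215% to 0.255% and 0.807% and the muscle share from 16.3% to 22.0% and 11.7%, and their part was not tested. The highest Control group (0.0967% to 1.12%) covered the product shares of much of the lowest and middle Loaded groups (0% to 0.539%). In it *Runx2* gave 15.0 (interval 9.43 to 22.8), *Sp7* 4.79 (interval 1.92 to 9.86) and *Dlx5* 5.47 (interval 2.36 to 10.8). For each of these genes the interval overlapped those of both the lowest and the middle Loaded group.

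**Figure D4:**
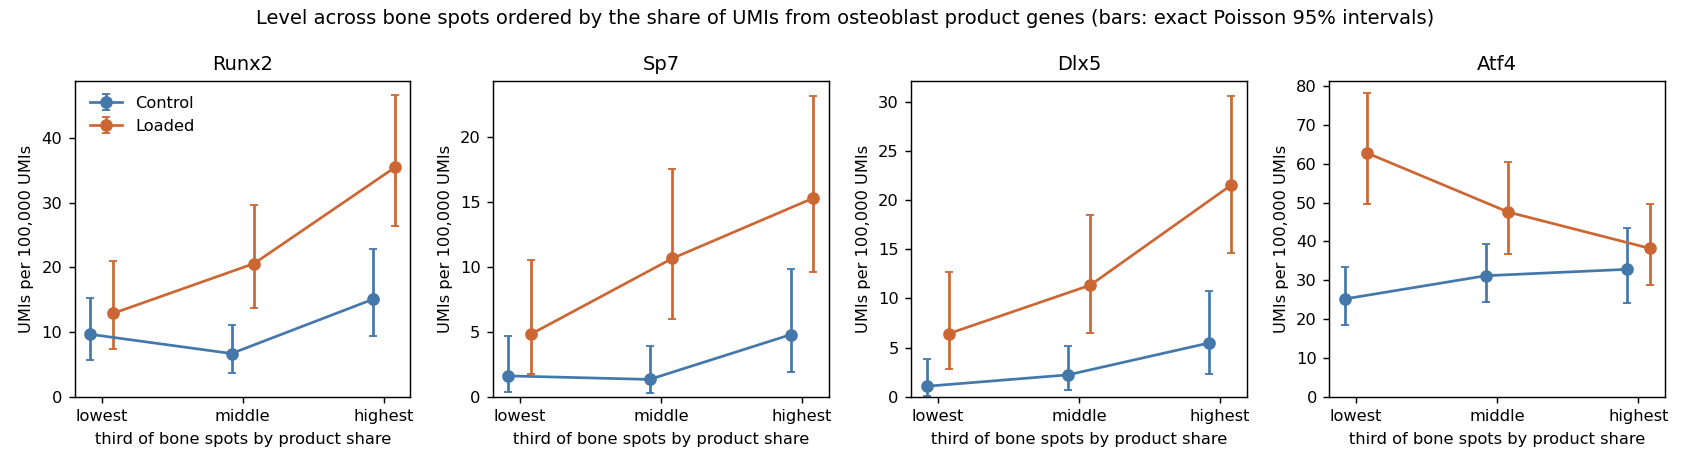
Level of 4 factors (vertical axis, UMIs per 100000 UMIs, with exact Poisson 95% intervals) in bone spots cut into 3 groups of lowest, middle and highest share of osteoblast product transcripts, Control in blue and Loaded in orange. In Loaded, *Runx2*, *Sp7* and *Dlx5* are higher in the highest than in the lowest group (35.5 against 12.9 for *Runx2*), and *Atf4* is lower (38.2 against 62.8).

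The factors were seldom caught together in a spot. At 1000 UMIs, at least 1 of *Runx2*, *Sp7* and *Dlx5* was found in 24 Control and 44 Loaded bone spots of 131. *Runx2* and *Sp7* occurred together in 5 Loaded spots, where their shares would give 2.56 if unrelated, and in 1 Control spot. *Runx2* and *Dlx5* occurred together in 2 Loaded spots, for 2.38 if unrelated. These counts are too small to describe a relation.

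Across 16 places (4 bone blocks, both rim zones and both distant zones in each section), the level of *Sp7* ran most like that of *Bglap* (Spearman's rho 0.93), *Alpl* (0.91), the phosphatase of mineralizing osteoblasts, and *Cct3* (0.91), among 10012 genes with at least 100 UMIs. *Dlx5* ranked 5 in likeness to *Sp7* (0.89). The genes most like *Dlx5* were *Pdgfb* (0.93), *Bambi* (0.92) and *Vegfc* (0.91), those most like *Runx2* were *Rarg* (0.95), *Cd44* (0.93) and *Txn1* (0.92), and those most like *Atf4* were *Cdk7* (0.97), *Mia2* (0.96) and *Ighd* (0.96). *Runx2* and *Sp7* were less alike (0.64), as were *Runx2* and *Dlx5* (0.63). Both *Sp7* (0.74) and *Dlx5* (0.71) were more like *Atf4* than like *Runx2*. The genes named as most like a factor are the highest of 10012, so their values are high by selection. The places share sections, depth and tissue makeup, and these values are descriptions.

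The wider circuit of the factors was followed in lists of genes, which were chosen with earlier results of these data known. The study had already reported *Phex*, *Bglap* and *Dmp1* as higher with loading, so the counts of targets are descriptions and not independent support. Of 12 known targets of the osteoblast factors, 11 were counted and had at least 10 UMIs, and 8 of them were at least 2-fold higher in Loaded bone, 3 lay between and none was 2-fold lower (median log2 ratio 1.66, against 0.02 for all genes; 10.6% of genes were 2-fold higher and 9.81% lower). The highest were *Phex* (2 UMIs in Control, 35 in Loaded; log2 ratio 4.46, interval 2.50 to 7.56), *Bglap* (126 and 1078; 3.42, interval 3.16 to 3.70) and *Dmp1* (28 and 171; 2.94, interval 2.36 to 3.57), genes of mineralizing osteoblasts and young osteocytes. *Bglap*, *Ibsp*, *Alpl*, *Phospho1*, *Dmp1* and *Phex* are also among the product genes above, and *Bglap* has near-identical neighbors, which its probes may also count. The lowest were *Mmp13* (303 and 185; -0.38, interval -0.66 to -0.12), the osteoclast-inducing ligand *Tnfsf11* (10 and 11; 0.47) and *Ibsp* (285 and 321; 0.50). The 3 genes whose promoters are shown above were picked because they differed in direction. *Bglap* and *Spp1* (520 and 1174 UMIs; 1.50) were higher in Loaded bone and *Mmp13* was not. *Dmp1*, which also holds the Runx core, was higher (2.94). The part of the core in these values was not tested. Against other spots, all 11 targets were at least 2-fold higher in Loaded bone (median 2.59, against 13.1% of all genes and a median of 0.21) and 6 of 11 in Control bone (median 1.12, against 23.5% and 0.43).

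Among the relatives of the factors, *Runx3* (12 UMIs in Control, 36 in Loaded; log2 ratio 1.91) was higher in Loaded bone, and *Runx1*, the blood cell factor, was lower (25 and 9; -1.15). *Dlx6*, the neighbor of *Dlx5* on the chromosome, had a ratio of 1.33, but its UMIs (4 and 8) were too few to tell it from no difference. *Dlx1*, *Dlx2* and *Dlx4* had too few UMIs. Of the proteins that act with *Runx2* on DNA, its obligate partner *Cbfb* gave 0.42 (76 and 81; interval -0.05 to 0.89), *Cebpd* -0.76 (206 and 97; interval -1.12 to -0.40) and *Cebpb* -0.56 (284 and 153; interval -0.86 to -0.28). These single genes do not stand for the other partners, whose summary is not reported here. Antagonists of *Runx2* gave 0 of 6 at least 2-fold apart in either direction (median -0.12), from *Twist1* at -0.29 to *Hey1* at 0.72. The other homeobox factors of skeletal cells also gave 0 of 3 (median -0.09), among them *Prrx1*, a mark of mesenchymal precursors (151 and 113; -0.09, interval -0.46 to 0.27). Of all genes, 10.6% were at least 2-fold higher and 9.81% lower, so counts of 0 in lists this short do not set them apart. Of 3 effectors of Wnt signaling with at least 10 UMIs, *Ctnnb1* was level at 0.05. *Tcf7l2* passed 2-fold (6 and 12; 1.33), on too few UMIs to tell it from no difference.

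All 4 kinases that start the translation of *Atf4* (*Eif2ak1* to *Eif2ak4*) lay within 2-fold (median -0.17). Of 15 tested targets 3 were at least 2-fold higher, 2 were lower and 10 lay between (median 0.11), against 10.6% of all genes higher and 9.81% lower. Those higher were *Asns*, asparagine synthetase (26 UMIs in Control, 72 in Loaded; 1.80, interval 1.13 to 2.50), *Mthfd2*, of mitochondrial folate metabolism (6 and 12; 1.33), and *Nupr1* (61 and 99; 1.03). The UMIs of *Mthfd2* were too few to tell its ratio from no difference. Those lower were *Atf5* (78 and 17; -1.87, interval -2.72 to -1.10) and *Chac1* (58 and 22; -1.07, interval -1.85 to -0.34). The composite Atf4 element stood in 6 of 18 promoter entries of the list (33.3%), against 3.45% of all promoters. Of the genes with it, *Asns* and *Nupr1* were at least 2-fold higher in Loaded bone and *Chac1* lower, *Aars* (0.03) and *Atf3* (-0.52) lay between, and *Slc7a11* had too few UMIs.

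**Figure D5:**
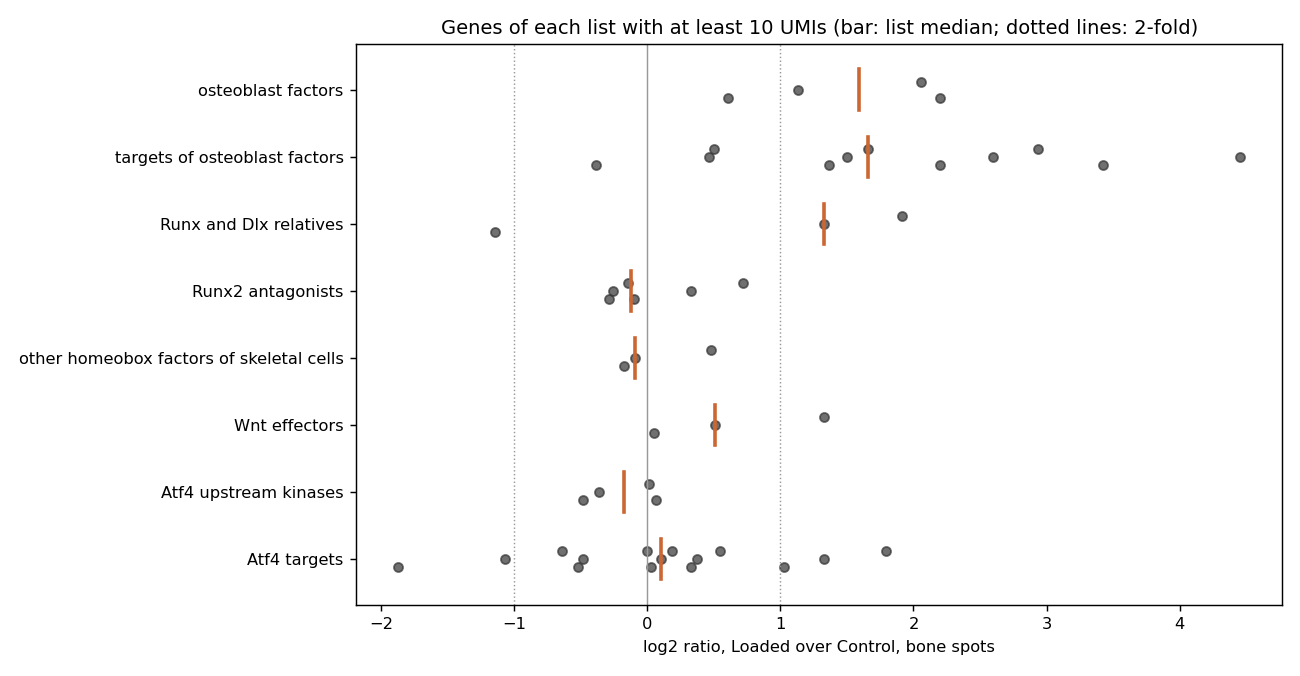
Log2 ratio of Loaded over Control in bone spots (horizontal axis) for each gene with at least 10 UMIs in the lists of the circuit (rows), with the list median as an orange bar and 2-fold as dotted lines. The targets of the osteoblast factors reach from -0.38 to 4.46 with a median of 1.66, while the medians of the antagonists and both *Atf4* lists lie between -0.17 and 0.11.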

How the data were processed

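The authors processed the probe libraries with SpaceRanger (version 2.0.0 per the file headers, build mm10 per the labels) and deposited raw UMI counts per gene and spot, with no normalization. Spots with at least 500 UMIs and 250 genes were kept, and bone spots were those the authors list by barcode. The authors' tables of their own comparisons were not used. Sums of UMIs were divided by summed scran size factors (R 4.3.3, scran 1.30.0) between sections and by library totals within a section. With no replicate sections no p-value is given, and intervals (95%; Python 3.11.15, scipy 1.17.1) cover counting error. A gene needed 10 UMIs over the regions compared, and "called" meant at least 2-fold. A sum of 0 was set to 3 UMIs as a bound. Blocks were cut at the medians along and across each region's long axis. Muscle spots had a muscle list share of at least 10%. Thinning used 1000 UMIs. The 4 members with at least 100 UMIs were matched in likeness, and genes named from a list were its 3 highest and 3 lowest or fewer. Alternatives were library totals, TMM (edgeR 4.0.16), equal weight per spot, other limits, spot sets and draws. Scripts were tested on simulated counts. The members and lists were chosen with earlier results of these data known. *Twist2*, *Bglap2* and *Hba-a1* were not matched, and *Ddit3*, on 2 rows, was left out. Promoter sequences came from RefSeq and held 2 of the 5 members, *Runx2* and *Atf4*. The summary over the list of *Runx2* partners is not reported here. Figures were drawn with matplotlib 3.10.9.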

Additional observations from a re-analysis of the deposited data

Results flagged for a closer look

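For 3 factors, the ratio of bone over spots 3 or more grid steps away with a muscle share below 10% had opposite signs in the 2 sections, a comparison chosen after the values were seen. The log2 ratio was -0.98 in Control (interval -1.44 to -0.54) and 0.51 in Loaded (0.12 to 0.89) for *Runx2*, -0.60 (-1.64 to 0.36) and 2.30 (1.49 to 3.17) for *Sp7*, and -1.16 (-2.09 to -0.32) and 2.91 (2.08 to 3.81) for *Dlx5*. The Control interval of *Sp7* holds 0, and against the spots beyond the ends alone so does the Loaded one of *Runx2* (0.21, interval -0.21 to 0.63). *Dlx3* also had opposite signs (-1.53 and 1.39), but on 1 UMI in Control bone and 5 in the distant Control spots, below the limit of 10. With 1 section per group the difference was not tested. The share of all genes with opposite signs was not counted, so the signs do not set these factors apart. The distant Control spots held 0.174% of UMIs from osteoblast products and 0.361% from chondrocyte genes, the distant Loaded spots 0.0914% and 0.0469%. The chondrocyte share in Control was uneven, with a median spot at 0.0863% and the highest at 24.3%. The part of these differences in the opposite signs was not tested.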

How the results depend on the processing

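No paired analysis was possible because each group has 1 section. In bone, the log2 ratio of Loaded over Control became 0.45 for *Runx2* and 1.27 for *Dlx5* in spots of low muscle share, and leaving out 1 block gave 0.80 to 1.66 for *Runx2*, 1.78 to 2.37 for *Sp7*, 1.93 to 2.55 for *Dlx5* and 0.50 to 0.79 for *Atf4*, with 2 or 3 genes called. In other spots, library totals gave 0.57 for *Runx2* and 0.52 for *Atf4*, and distant spots of low muscle share -0.22 (*Runx2*), -0.71 (*Sp7*), -1.73 (*Dlx5*) and 0.26 (*Atf4*).

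Bone over other spots in Control became, with scran factors, 0.42 for *Runx2* and -0.41 for *Atf4*, and -0.19 for *Atf4* with totals without muscle genes. Without other spots of high product share it was 2.07 for *Runx2*, 3.39 for *Sp7* and 2.33 for *Dlx5*. Choices made after seeing the data gave, for *Runx2*, *Sp7*, *Dlx5* and *Atf4* in turn, -0.98, -0.60, -1.16 and -0.87 against distant spots of low muscle share, -1.12, -0.83, -1.40 and -0.89 against those beyond the ends, and 1.78, 2.77, 1.81 and 0.33 against muscle spots. Of the genes with at least 10 UMIs, 2 were at least 2-fold higher without the rim (27.8% of all genes), 3 without spots of high product share (34.8%), 0 against the distant sets (9.71% and 10.2%) and 3 against muscle (38.3%). In Loaded, the distant set gave 0.51 (*Runx2*), 2.30 (*Sp7*) and -0.39 (*Atf4*), the set beyond the ends 0.21, 1.99 and -0.43, with 0.85 for *Dlx3* and 2 genes at least 2-fold higher (8.49% of all genes), and muscle spots 2.59, 3.94 and 0.71. *Atf4* was thus lower in Loaded bone against both distant sets and higher against muscle spots, and the causes were not tested.

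Shares of bone spots rested on depth and draw. Without thinning, Control gave 30.5% (*Runx2*), 9.92% (*Sp7*) and 68.7% (*Atf4*), and Loaded 45.2%, 20.5% and 67.1%, with 26.0% for *Dlx5*. At 500 UMIs, Control gave 1.53% for *Dlx5* and 12.2% for *Atf4*, and Loaded 10.3% (*Runx2*), 0% (*Dlx3*), 4.79% (*Dlx5*) and 19.2% (*Atf4*). Other draws gave 35.1% and 32.8% for *Atf4* in Control, and in Loaded 26.7% for *Runx2* in both draws that moved, 3.05% for *Sp7*, 0% for *Dlx3*, and 43.5% and 44.3% for *Atf4*. Over all results and alternatives, 304 values held, 100 moved by more than their counting interval and 8 changed direction. Precision is lowest for *Dlx3*, with at most 16 UMIs in a section, and for *Sp7* and *Dlx5* in Control bone, with 13 and 15.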
